A study of Mus musculus with 30 samples.

Results

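H3K4me1 was compared between motor neurons of HD, a line that the labels give as Mnx1KO, and wild-type motor neurons. The members are the regions of the 2 deposited H3K4me1 peak lists, 90369 in HD and 110851 in wild type, or 201220 of the 339038 regions in all peak lists of the series. A region counted as shared when the other list overlapped it by 1 bp or more, and as HD-only or wild-type-only otherwise. By this rule 9384 HD regions and 35063 wild-type regions were unshared. Each list stands for 2 ChIP-seq libraries of its genotype, combined in a way the labels do not give, so the lists carry no replicate error and their differences are described without a test. RNA came from 2 HD, 2 wild-type and 2 EH libraries. EH, a second line with the label Mnx1KO, is not compared here but entered the filter on low counts, the scaling and the estimate of spread. All groups were mouse embryonic stem cells turned into motor neurons and collected on day 6 after retinoic acid (1 µM), the Smoothened agonist SAG (1 µM), doxycycline (1 µM) and the Notch pathway inhibitor DAPT (5 µM). Wild-type cells received the same agents. The labels explain neither line name, do not say where Mnx1 was altered, how many clones a line stands for, what doxycycline drives, or whether the replicates grew apart as separate cultures. Every p-value therefore covers only the spread between these libraries.

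H3K4me1, a single methyl group on lysine 4 of histone H3, marks enhancers and the flanks of promoters, whether active or poised. H3K27ac beside it marks the active ones, H3K4me3 marks the starts of genes, and H3K27me3 is laid by Polycomb over silent developmental genes. Mnx1 (also called Hb9) is a homeodomain transcription factor of spinal motor neurons that holds back genes of other neuron types. Homeodomain proteins as a class bind short AT-rich sequences around a TAAT core.

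The 5 promoters below are examples, chosen after the values were seen, of start windows overlapped by an unshared H3K4me1 region at a gene called higher in HD by at least 1 of the fits given further on: 2 of the 4 such genes with an HD-only region and 3 of the 24 with a wild-type-only region. Each is the 250 bases before a listed start of the gene (RefSeq, GRCm38.p6, the build called mm10), which need not be its first base. The Slc6a5 window lies inside the gene (chr7:49906984-49963864). Those of Chrna5 and Lin7a run past the first base of the gene (54980827 and 107271549). Capitals mark TAAT on either strand, so that ATTA is the same core read on the other strand.
Chrna5 (HD-only region, chr9:54980630-54980879, + strand): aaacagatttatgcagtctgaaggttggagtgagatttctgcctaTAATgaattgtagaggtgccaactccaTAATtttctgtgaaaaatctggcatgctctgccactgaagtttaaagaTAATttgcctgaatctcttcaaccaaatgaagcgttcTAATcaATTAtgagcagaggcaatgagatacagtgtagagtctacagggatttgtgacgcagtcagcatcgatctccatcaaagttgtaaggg
Slc6a5 (HD-only region, chr7:49910049-49910298, + strand): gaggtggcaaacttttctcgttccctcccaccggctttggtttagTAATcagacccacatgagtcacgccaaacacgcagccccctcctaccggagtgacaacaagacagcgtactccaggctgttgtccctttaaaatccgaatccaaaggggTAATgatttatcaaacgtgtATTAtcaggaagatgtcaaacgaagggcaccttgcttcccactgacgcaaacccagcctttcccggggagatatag
Sorcs3 (wild-type-only region, chr19:48205775-48206024, + strand): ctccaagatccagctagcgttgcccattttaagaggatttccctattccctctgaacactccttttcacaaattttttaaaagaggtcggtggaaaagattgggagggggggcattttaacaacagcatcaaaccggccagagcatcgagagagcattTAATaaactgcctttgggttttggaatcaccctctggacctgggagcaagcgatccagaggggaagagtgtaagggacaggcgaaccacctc
Lin7a (wild-type-only region, chr10:107271581-107271830, + strand): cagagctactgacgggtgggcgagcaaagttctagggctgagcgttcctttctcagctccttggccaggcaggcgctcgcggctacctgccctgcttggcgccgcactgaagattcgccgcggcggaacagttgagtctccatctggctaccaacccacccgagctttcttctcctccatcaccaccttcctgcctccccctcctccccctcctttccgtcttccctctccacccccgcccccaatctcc
Frzb (wild-type-only region, chr2:80447397-80447646, - strand): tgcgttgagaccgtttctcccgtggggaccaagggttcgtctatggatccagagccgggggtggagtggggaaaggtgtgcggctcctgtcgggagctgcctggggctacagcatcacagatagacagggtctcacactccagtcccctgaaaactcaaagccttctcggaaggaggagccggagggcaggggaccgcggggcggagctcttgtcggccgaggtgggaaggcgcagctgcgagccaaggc

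Chrna5, a nicotinic acetylcholine receptor subunit, held 5 cores in its window, a number reached by 1.55% of all 14100 windows. Slc6a5, the glycine transporter of inhibitory neurons, held 3, reached by 7.43%. Sorcs3, a sorting receptor of the VPS10 family, held 1, while Lin7a, a synaptic scaffold protein, and Frzb, a secreted Wnt antagonist, held none. The Lin7a region (chr10:107270947-107271582) and the Frzb region (chr2:80445682-80447432) reached only the edge of the bases shown, most of which lay outside them. A window counts as under a region at an overlap of 1 bp or more, with the 50 bases after the start included. Over all windows 39.5% held at least 1 core. The share was 54.1% of the 98 windows under an HD-only region, 40.0% of the 1190 under a wild-type-only region and 45.5% of the 2571 under a region of both lists. Base composition differed along with it, with a median GC content of 52.8% in windows under HD-only regions, 58.8% under wild-type-only regions and 60.0% over all windows, and its part in the core count was not tested. The region over this Chrna5 window (chr9:54980693-54981159) overlapped no peak of H3K4me3, H3K27ac or H3K27me3. Taken over all start windows of Chrna5, however, peaks of H3K4me3 and H3K27ac of both genotypes and of wild-type H3K27me3 were present. The region over the Slc6a5 window shown (chr7:49910052-49910548) overlapped H3K4me3 and H3K27me3 peaks of both genotypes and an H3K27ac peak of HD alone.

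Most HD regions had a counterpart in wild type, and unshared regions were far more numerous on the wild-type side. Of the HD list, 80985 regions (89.6%, Wilson 95% interval 89.4 to 89.8) were shared, against 75788 regions (68.4%, 68.1 to 68.6) of the wild-type list. HD-only regions made up 10.4% of their list and covered 5.4 Mb, and wild-type-only regions 31.6% and 23.6 Mb. These intervals cover counting error alone. The wild-type list was longer, with a lower limit of 3.0 on the −log10 q in both lists, and the depth of the ChIP libraries is not given in the sources used here, so depth and genotype cannot be told apart in the number of unshared regions. When the wild-type list was held to the length of the HD list by its enrichment, the shares came closer, at 82.2% of HD and 75.2% of wild-type regions.

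Unshared regions were narrow and weakly enriched within their own list. The median width was 512 bp for HD-only and 917 bp for shared HD regions, and 590 bp for wild-type-only and 1203 bp for shared wild-type regions. Median fold enrichment over background, the authors' value for each peak, was 2.96 in HD-only against 3.39 in shared regions of the HD list, and 3.17 against 4.33 within the wild-type list. With each list cut into 10 equal bins by enrichment, the shared share of the wild-type list rose from 37.2% in the lowest bin to 99.6% in the highest. The HD list went from 89.3% in its lowest bin through 80.6% in the third to 99.8% in the highest. Only 21 of the 9384 HD-only regions and 46 of the 35063 wild-type-only regions lay in the highest bin of their list.

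**Figure D1:**
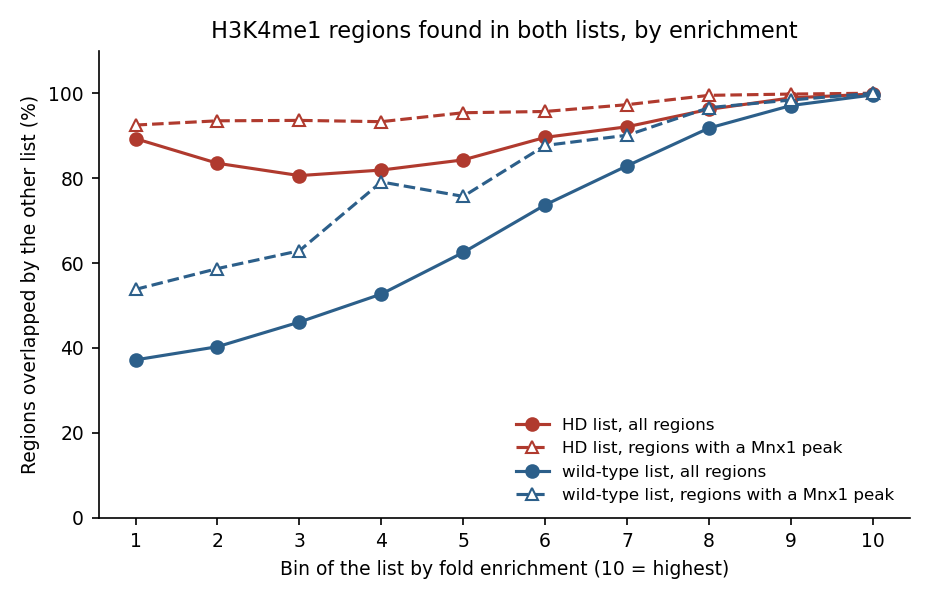
Share of H3K4me1 regions overlapped by the other list (y axis, percent) in 10 equal bins of each list by fold enrichment (x axis), for all regions (filled circles) and for those under a Mnx1 peak (open triangles). The wild-type line climbs from 37.2 to 99.6%, the HD line dips to 80.6% in bin 3, and regions with a Mnx1 peak lie at or above the line of all regions in every bin.

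The border of the rule was crowded. Among shared regions, 489 in HD and 619 in wild type overlapped the other list by at most 100 bp, and 377 HD-only and 587 wild-type-only regions stopped within 100 bp of a region of the other list. Of HD-only regions 25.4% lay within 1 kb of a wild-type region, and of wild-type-only regions 20.6% lay within 1 kb of an HD region. The share of the HD list that was shared ran from 87.0% on chromosome 16 to 92.7% on chromosome 11 among the 19 autosomes and was 82.9% on X. For the wild-type list it ran from 67.1% on chromosome 5 to 70.4% on chromosome 18, with 59.1% on X, so X was lowest in both lists.

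Unshared regions lay away from gene starts, the HD-only ones most. Within 2 kb of the start of a protein-coding gene lay 6.86% of HD-only regions, 13.3% of wild-type-only regions, and 22.8 and 23.4% of the shared regions of HD and wild type. A further 54.9% of HD-only and 51.2% of wild-type-only regions lay inside a gene, against 47.1 and 46.0% of shared regions. The median distance to the nearest start was 51.3 kb for HD-only regions, 28.5 kb for wild-type-only regions, and 25.2 and 25.8 kb for shared regions of HD and wild type. Of HD-only regions, 3181 lay over 100 kb from any such start. For genes without a known start the nearer gene end stood in for it, here and below.

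Few unshared regions of either kind carried H3K27ac. An H3K27ac peak of HD overlapped 6.03% of HD-only regions and 6.01% of wild-type-only regions, against 22.2% of shared HD regions and 24.4% of shared wild-type regions. Over 2 kb from a start, H3K27ac of HD overlapped 3.59% of HD-only regions and H3K27ac of wild type 2.07%. At wild-type-only regions that far from a start the corresponding shares were 2.04 and 1.9%. In the H3K27ac list labelled wild type, each peak name carries the word KO; the label was kept here, and which is right was not tested. The names in both H3K4me1 lists match their labels.

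H3K27me3 was found at more wild-type-only than HD-only regions. The wild-type H3K27me3 list overlapped 6.6% of wild-type-only regions and 1.11% of HD-only regions, and the HD list 3.95 and 0.757%. Near gene starts the wild-type H3K27me3 list reached 27.3% of wild-type-only, 8.23% of HD-only and 21.9% of shared wild-type regions. Width differed between the classes, but among regions of 600 bp or less the order was kept. There wild-type H3K27me3 overlapped 4.2% of wild-type-only and 1.13% of HD-only regions, and HD H3K27me3 2.39 and 0.75%. With a reciprocal overlap of 50% as the rule for shared regions the gap was much smaller, at 8.17% of wild-type-only and 5.99% of HD-only regions under H3K27me3 of their genotype. The HD H3K27me3 list was the shorter of the pair, with 5729 regions against 9365. The 2314 wild-type-only regions under wild-type H3K27me3 included 1277 near a start. The most fell to patterning genes: Uncx, a homeodomain factor of the somites, with 9, Pax2, a paired-box factor of kidney, eye and spinal interneurons, with 8, and Lmx1b, Foxf1, Tbx3, Tfap2a, Onecut2 and Bmp7 with 6 each. H3K4me3 of the same genotype overlapped 6.82% of HD-only and 13.7% of wild-type-only regions, against 26.6 and 28.4% of the shared regions. H3K9me3, a mark of heterochromatin, overlapped 0.202% of HD-only regions in HD and 2.25% of wild-type-only regions in wild type.

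**Figure D2:**
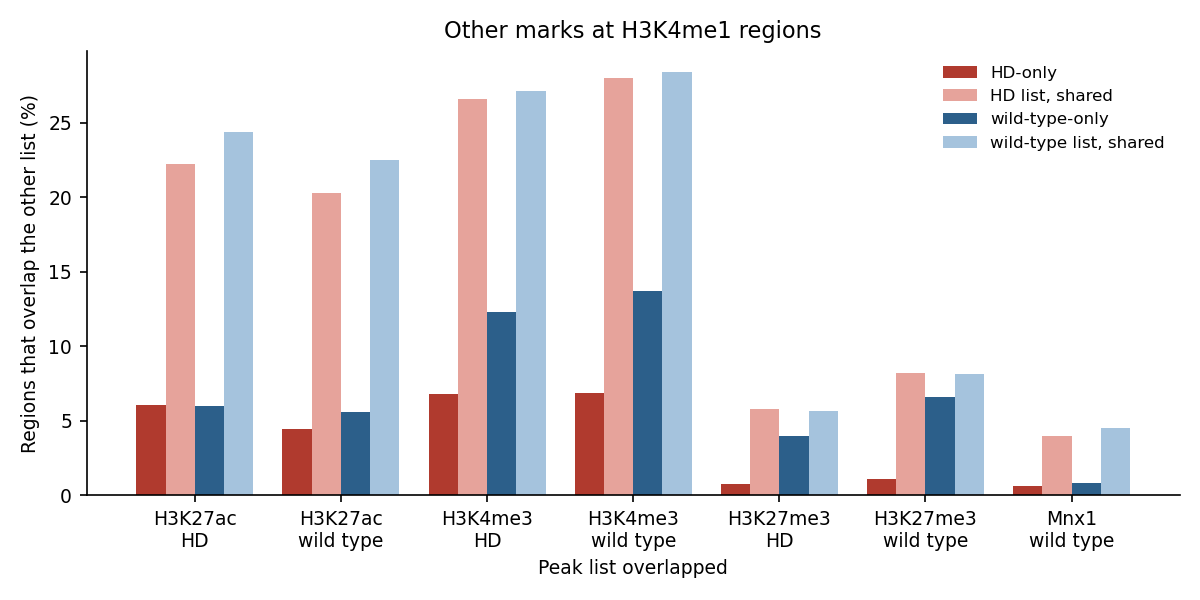
Share of H3K4me1 regions (y axis, percent) that overlap each other peak list (x axis), for HD-only, wild-type-only and shared regions. Shared regions are highest for every list drawn, and H3K27me3 of wild type covers 6.6% of wild-type-only but 1.11% of HD-only regions.

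H3K4me1 regions under a Mnx1 peak, mapped in wild type alone, were mostly present in both lists. A Mnx1 peak overlapped 3278 HD and 3696 wild-type regions, and of these 98.3% and 92.4% were shared. It overlapped 0.597% of HD-only and 0.801% of wild-type-only regions, against 3.98 and 4.51% of shared regions. Regions under a Mnx1 peak were also the more enriched ones, and the shared share of all regions in the same bin was lower or equal in each bin. In the lowest bin of the wild-type list 53.8% of the 52 regions with a Mnx1 peak were shared, against 37.2% of all, and in the highest bin all 1278 were shared. The labels list an antibody to GFP but no Mnx1 antibody, and do not say which was used for the Mnx1 peaks.

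The cells of both genotypes carried the motor neuron program. All 6 defining genes (Mnx1, Isl1, Isl2, Lhx3, Chat and Slc18a3) stood above 1 TPM in each HD and wild-type library, with a summed level of 1380 to 1670 TPM. Mnx1 RNA was 430 and 368 CPM (counts scaled to a library total in M) in HD and 465 and 417 CPM in wild type, which overlapped; since the altered part of the gene is not given, this does not check the label, and groups are called by their labels. Around Mnx1 (chr5:29473823-29478470) lay 11 shared regions, 6 of them under a Mnx1 peak, beside 2 HD-only and 2 wild-type-only regions. Of 10 trophoblast markers 9 passed 1 TPM in each library, summing to 1400 to 1860 TPM. The 12 pluripotency markers summed to 180 and 161 TPM in HD and 221 and 232 TPM in wild type, with none at 0. Library totals were 11.2 and 12.4 M expected counts in HD and 13.9 M in each wild-type library. In such bulk samples fewer cells of a type and less RNA per cell cannot be told apart.

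Across genes, RNA differed little between HD and wild type: edgeR called 27 of 15565 genes (0.173%) in the fit of 6 libraries, 21 higher in HD (0.135%) and 6 lower (0.0385%). Fitted without EH, on 4 libraries, edgeR called 336 of 15182 genes (2.21%), 259 higher (1.71%) and 77 lower (0.507%). Left without any 1 of its HD or wild-type libraries, the 6-library fit called 0 genes, with 525 to 640 at an unadjusted p under 0.05, whereas the 4-library fit then called 203 to 533 and kept all 27 each time. EH was the deepest and most variable group (39.8 and 39.7 M counts). Calls below are given for both fits. Regions could be given to 13756 of the genes tested, called genes with a start below. Of these, 10984 had a start in the promoter table, and the others were placed by their gene ends.

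Genes grouped only by whether they had unshared regions hardly differed in their median RNA change, while the share called did differ. The median log2 fold change (HD over wild type) was 0.01 over 683 genes nearest to HD-only regions alone, −0.03 over 5160 nearest to wild-type-only regions alone, 0.02 over 3063 with both kinds and −0.02 over 4850 with neither. It was −0.02 over all 13756. The libraries of HD lay wholly above those of wild type at 163 of the 683 genes, against 2937 of all 13756 (21.4%), and at 955 of the 5160. They lay wholly below at 122 and 1303 of these genes, against 22.6% of all. The 4-library fit called 6.3% of the genes with both kinds (163 higher, 30 lower) and 0.598% of those with neither. It called 1.9% of genes with HD-only regions alone, 1.26% with wild-type-only regions alone and 2.18% of all. Genes with both kinds were longer, with a median of 75.6 kb against 14.8 kb with neither, and the part of length was not tested.

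The balance of unshared regions went with RNA at its HD end. More wild-type-only than HD-only regions were found at 7230 genes (52.6%) and more HD-only at 1052 (7.65%). At the 36 genes with an excess of 5 or more HD-only regions the median log2 fold change was 0.47 (middle 50% of genes from 0.05 to 1.17), and 30 of the 36 were above 0. HD libraries lay wholly above wild type at 26 of them and wholly below at 0. The 6-library fit called 4 of the 36 higher and 0 lower, and the 4-library fit 16 higher (44.4% of them, against 1.72% of all genes with a start) and 0 lower. At the 79 genes with an excess of 3 or 4 the median was 0.16, with 13 higher and 1 lower in the 4-library fit. At 937 genes with an excess of 1 or 2 it was 0.02. At the wild-type end, 392 genes with 10 or more wild-type-only regions in excess had a median of −0.05 (−0.158 over 60 genes when only regions within 50 kb of a start were counted, and −0.025 without wild-type replicate 2), with 16 higher and 20 lower in the 4-library fit, where 64 of all genes with a start (0.465%) were lower. Gene length ran along with these groups: the median gene spanned 202 kb in the group of 36, 151 kb in that of 392 and 25.0 kb over all, and its part in the RNA difference was not tested. With the wild-type list held to the length of the HD list, 216 genes had an excess of 5 or more HD-only regions, and their median was 0.205.

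**Figure D3:**
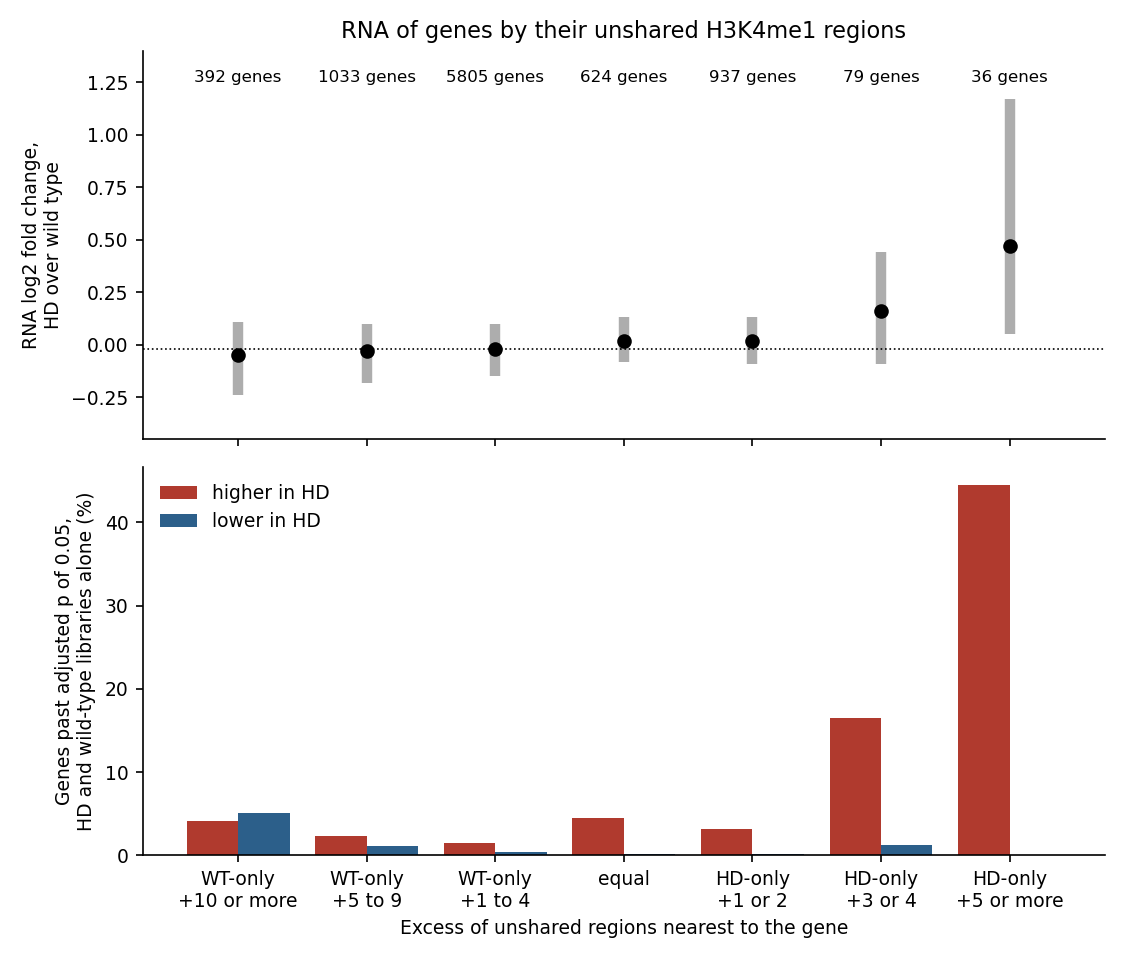
RNA of genes grouped by the excess of HD-only or wild-type-only (WT-only) regions nearest to them. Upper panel, median log2 fold change of the 6-library fit (points) with the middle 50% of genes (bars) and the median of all genes (dotted line); lower panel, percent of genes past an adjusted p of 0.05 in edgeR's 4-library fit. The 36 genes at the right have a median of 0.47 and 44.4% are called higher in HD.

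Regions whose H3K27ac peak was listed in 1 genotype were few. HD-only regions under an H3K27ac peak of HD and none of wild type numbered 221 and were nearest to 169 tested genes, with a median log2 fold change of 0.04 and 24 higher and 1 lower in the 4-library fit (1.72 and 0.465% of all genes with a start). Wild-type-only regions with H3K27ac in wild type alone numbered 289, nearest to 227 tested genes, with a median of −0.03 and 4 higher and 8 lower. The limit on the label of the wild-type H3K27ac list applies to both.

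Of the 10 genes with the largest excess of HD-only regions, 9 spanned over 100 kb. The 4-library fit called 8 of the 10 higher, against 1.72% of all genes with a start. Ties in the excess went to the smaller RNA p, so the choice of these genes was not free of the RNA. Chl1 (chr6:103510584-103733038), an adhesion molecule of the L1 family in axon growth, had 12 HD-only, 2 wild-type-only and 24 shared regions. Its RNA was 172 and 155 CPM in HD and 36.6 and 44.3 CPM in wild type, with no overlap. The log2 fold change was 2.01 ± 0.138 (SE; edgeR adjusted p = 0.0102). Of its 12 HD-only regions 9 lay inside the gene, they covered 8.66 kb, and 3 overlapped H3K27ac of HD and none H3K27ac of wild type. The most enriched (chr6:103624165-103625190) lay 113 kb from the start.

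Ntng1 (chr3:109780050-110149972), netrin G1, a membrane-anchored netrin of synapses, had 13 HD-only regions, all inside the gene, 4 wild-type-only and 17 shared. RNA was 97.3 and 83.4 CPM in HD and 33.4 and 39.6 CPM in wild type, so the HD libraries were the higher pair (log2 fold change 1.31 ± 0.131, edgeR adjusted p = 0.0270). Car10 (chr11:93096805-93601751), a carbonic anhydrase-related protein without enzyme activity, had 11 HD-only, 2 wild-type-only and 12 shared regions. Its RNA was 51.5 and 46.8 CPM in HD and 15.1 and 16.3 CPM in wild type. That separation passed edgeR's test in the 4-library fit (adjusted p = 0.000464) and not in the 6-library fit (1.64 ± 0.281, adjusted p = 0.119).

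Sorcs3 (chr19:48206025-48805505) had the most HD-only regions of the genes named here, 21, beside 13 wild-type-only and 55 shared regions. RNA was 98.8 and 87.5 CPM in HD and 16.0 and 21.6 CPM in wild type (log2 fold change 2.31 ± 0.271, edgeR adjusted p = 0.0482). A wild-type-only region covered its start (the window shown above). The gene body held both kinds, with 17 of the 21 HD-only and 11 of the 13 wild-type-only regions inside the gene. Pbx3 (chr2:34171457-34372045), a TALE homeodomain cofactor of Hox proteins, had 13 HD-only, 5 wild-type-only and 49 shared regions, and all 13 lay inside the gene. Its RNA was 375 and 366 CPM in HD and 162 and 176 CPM in wild type (1.14 ± 0.153, edgeR adjusted p = 0.0544, and 0.000464 in the 4-library fit).

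An excess of HD-only regions also occurred without a difference in RNA. Tcf12, a broadly expressed bHLH partner factor, had 10 HD-only regions against 1 wild-type-only, with RNA of 111 and 116 CPM in HD and 106 and 113 CPM in wild type, which overlapped. Cstf2t, an RNA 3′-end processing factor whose short gene lies inside Prkg1, had 14 HD-only regions against 6, and RNA of 54.1 and 52.4 CPM in HD and 55.2 and 52.6 CPM in wild type. All 14 and all 6 lay inside Prkg1, so they went to Cstf2t only because its start was nearer than that of Prkg1, which had 8 HD-only regions against 1 of its own. At Tcf12 and Cstf2t the log2 fold change was near 0 (0.05 ± 0.087 and −0.02 ± 0.089). Of the other 3 genes among the 10 largest, Setbp1, a chromatin-associated factor, had a log2 fold change of 0.62 ± 0.153, Pkp4, a plakophilin of cell junctions, 0.54 ± 0.141 and Prkg1, a cGMP-dependent kinase, 0.55 ± 0.199, each called by edgeR in the 4-library fit alone (adjusted p = 0.0206, 0.0161 and 0.0338).

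The genes with the largest excess of wild-type-only regions did not differ as far. They were long genes with many regions of every kind, with a median span of 801 kb. Wwox, an oxidoreductase gene at a fragile site, had 42 wild-type-only, 5 HD-only and 75 shared regions, and RNA of 11.7 and 8.91 CPM in HD and 11.9 and 10.0 CPM in wild type, which overlapped. Med13l, a Mediator kinase module subunit, had 38 against 2 and Rbfox1, a neuronal splicing factor, 43 against 11, and neither was called by edgeR in either fit. Spock1, an extracellular proteoglycan, had 34 against 2, with RNA of 136 and 124 CPM in HD and 178 and 173 CPM in wild type. Zfhx3, a large homeodomain and zinc finger factor, had 33 against 2, with 44.8 and 38.2 CPM in HD and 59.1 and 65.6 CPM in wild type. Both were called lower in the 4-library fit alone (edgeR adjusted p = 0.0322 and 0.0336), and the other 8 of these 10 genes were called in neither. The median log2 fold change over the 10 was −0.23.

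**Figure D4:**
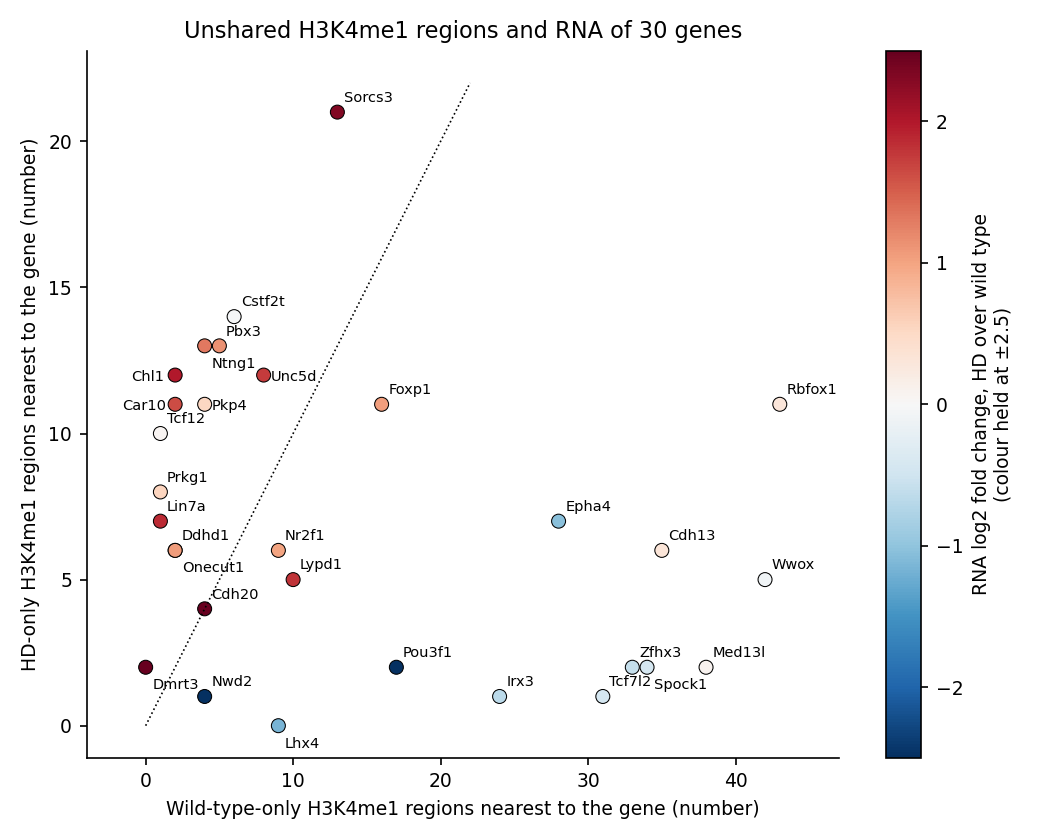
Number of HD-only (y axis) against wild-type-only (x axis) H3K4me1 regions nearest to each of 30 named genes, coloured by the RNA log2 fold change of HD over wild type; the dotted line marks equal numbers. Genes above the line run from a log2 fold change near 0 (Tcf12, Cstf2t) to strong rises (Chl1, Sorcs3). Below it lie genes lower in HD (such as Pou3f1, Epha4, Irx3 and Lhx4) and genes higher in HD (such as Lypd1, Nr2f1 and Foxp1).

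Read from the RNA side, the 20 genes with a start that were called higher in HD by the 6-library fit (0.145% of genes with a start) had 106 HD-only, 74 wild-type-only and 289 shared regions, where all genes together had 7968, 29268 and 65475. HD-only regions were the more numerous at 8 of the 20, wild-type-only regions at 6, and 6 had equal numbers. With the wild-type list held to the length of the HD list, 17 of all 25 called genes, higher or lower, had more HD-only regions, in place of 9. That setting raised HD-only regions from 9384 to 16130 and cut wild-type-only regions from 35063 to 22451. The share of all genes was not counted there, so the 17 has no background to be read against. The 5 called lower (0.0363%) had 6 HD-only, 26 wild-type-only and 49 shared regions. In the 4-library fit, 236 higher genes had 774 HD-only and 1130 wild-type-only regions, and 64 lower genes 80 and 521. Over all genes 21.4% of unshared regions were HD-only.

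Among called axon guidance and adhesion genes, Unc5d, a netrin receptor, had 12 HD-only and 8 wild-type-only regions and RNA of 36.1 and 31.3 CPM in HD and 8.96 and 11.2 CPM in wild type (log2 fold change 1.74 ± 0.162, edgeR adjusted p = 0.0193). One of those HD-only regions overlapped a Mnx1 peak, as did 6 of its 36 shared regions. Cdh20, a type II cadherin, had 4 of each kind and RNA of 18.7 and 18.3 CPM in HD and 0.917 and 2.01 CPM in wild type (3.66 ± 0.323, adjusted p = 0.0193). Sema3c, a secreted semaphorin, had 1 of each and differed by 0.83 ± 0.098 (adjusted p = 0.0482). High RNA in HD therefore came with an excess at Unc5d and with equal numbers at Cdh20 and Sema3c.

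Of the called synaptic and signalling genes, Lin7a had 7 HD-only regions, 5 of them inside the gene, and 1 wild-type-only region 0.249 kb from its start. Its RNA was 133 and 118 CPM in HD and 30.1 and 39.3 CPM in wild type (log2 fold change 1.86 ± 0.222, edgeR adjusted p = 0.0494). Lypd1, a modulator of nicotinic receptors, had 5 HD-only and 10 wild-type-only regions and RNA of 274 and 290 CPM in HD and 70.4 and 90.6 CPM in wild type. Frzb had 1 HD-only and 2 wild-type-only regions and RNA of 152 and 143 CPM in HD and 28.9 and 38.3 CPM in wild type. St8sia4, which adds polysialic acid to the adhesion molecule NCAM, had 0 HD-only and 1 wild-type-only region and RNA of 61.1 and 57.3 CPM in HD and 17.2 and 19.5 CPM in wild type. All 4 rose (edgeR adjusted p = 0.0193 for Lypd1, 0.0102 for Frzb and 0.0102 for St8sia4), Lin7a with more HD-only regions and the other 3 with more wild-type-only regions. Of the rest called higher, Ddhd1, a phospholipase, had 6 HD-only against 2 wild-type-only regions, Cttnbp2, a cortactin-binding protein of dendritic spines, 3 against 3, Fras1, an extracellular matrix protein, 5 against 8, Syt4, a synaptotagmin, 0 against 2, and Pcsk1, a prohormone convertase, 0 of either.

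The called transcription factors differed in the same manner. Dmrt3, a factor of dI6 interneurons, had 2 HD-only and 0 wild-type-only regions, and its RNA was 18.3 and 21.6 CPM in HD and 3.25 and 3.31 CPM in wild type (log2 fold change 2.61 ± 0.184, edgeR adjusted p = 0.0102). Nr2f1, an orphan nuclear receptor, had 6 against 9 and rose by 1.00 ± 0.116 on the log2 scale (adjusted p = 0.0482). Pou3f1 (chr4:124657646-124660655; also called Oct6 or Scip), a POU factor of some motor columns, had 2 HD-only and 17 wild-type-only regions. Its RNA was 3.89 and 4.21 CPM in HD and 23.0 and 24.0 CPM in wild type (−2.54 ± 0.194, adjusted p = 0.0116), and the pairs did not overlap. None of its 17 wild-type-only regions overlapped H3K27ac of either genotype or a Mnx1 peak. The most enriched of them (chr4:124339853-124341240) lay 316 kb from the start. Of the other genes called lower, Nwd2 had 1 against 4, Arhgap25, a GTPase-activating protein, 1 against 2, Lix1 0 against 2, and Zfp804a, a zinc finger protein, 2 against 1.

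**Figure D5:**
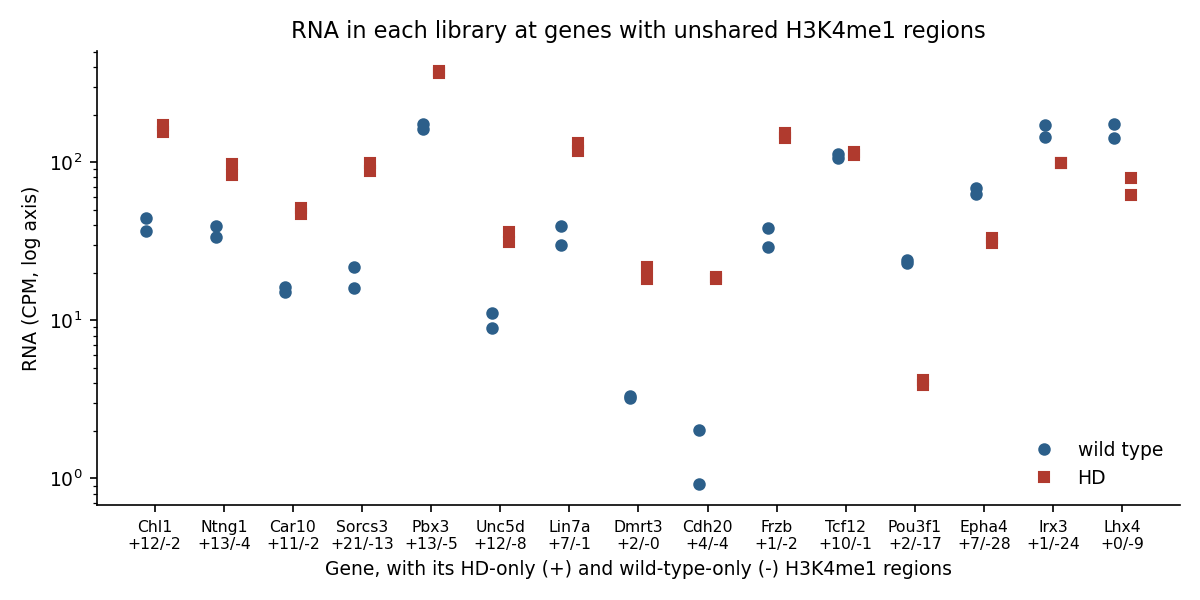
RNA in each of the 2 wild-type (circles) and 2 HD libraries (squares), in CPM on a log axis, for 15 genes with their numbers of HD-only (+) and wild-type-only (-) regions. HD and wild type do not overlap at any gene drawn except Tcf12. Of the genes drawn, those with the most wild-type-only regions (Pou3f1, Epha4, Irx3) are lower in HD. The 10 genes with the largest excess of wild-type-only regions are not drawn, and 4 of them have a log2 fold change above 0.

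Lists of genes by role give the wider view. Among 19 spinal motor neuron genes, 15 had more wild-type-only than HD-only regions and 1 had more HD-only (52.6 and 7.65% of all genes). HD-only regions made up 26.0% of the unshared regions of this list, against 21.4% over all genes. The median gene of the list had 10 shared regions, against 2 over all genes. The 4-library fit called 2 higher and 2 lower (1.72 and 0.465% of all genes with a start) and the 6-library fit 0. Lhx4, a LIM homeodomain factor of early motor neurons, had 0 HD-only, 9 wild-type-only and 21 shared regions, and its RNA was 79.8 and 62.4 CPM in HD and 176 and 143 CPM in wild type (log2 fold change −1.17 ± 0.163, edgeR adjusted p = 0.0600 and 0.00531 in the 4-library fit). Onecut1, a cut homeodomain factor, had 6 HD-only against 2 wild-type-only regions and RNA of 114 and 116 CPM in HD and 49.1 and 61.0 CPM in wild type. Chat, the enzyme of acetylcholine synthesis, had 0 against 3 and stood at 104 and 104 CPM in HD and 177 and 134 CPM in wild type, and Isl2 had 0 of either and stood at 54.5 and 64.1 against 111 and 86.3 CPM. Lhx4, Onecut1 and Isl2 passed in the 4-library fit and Chat did not (adjusted p = 0.0636).

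Of 16 motor column genes, which set motor neuron subtype, 12 had more wild-type-only regions (52.6% of all genes). HD-only regions made up 30.1% of the unshared regions of this list, against 21.4% over all genes. The 6-library fit called 1 lower (0.0363% of all genes with a start). The 4-library fit called 2 higher and 3 lower (1.72 and 0.465%). Besides Pou3f1 and Pbx3, Epha4 (chr1:77367182-77515107), an ephrin receptor of limb motor axons, had 7 HD-only and 28 wild-type-only regions and RNA of 33.3 and 30.8 CPM in HD and 63.1 and 68.9 CPM in wild type (log2 fold change −1.04 ± 0.177, edgeR adjusted p = 0.116 and 0.00170 in the 4-library fit). Foxp1, the Hox cofactor of limb motor columns, had 11 against 16 and rose in the 4-library fit (1.05, adjusted p = 0.00609). Epha4 and Foxp1 thus moved in opposite directions with an excess of wild-type-only regions at both.

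Among 19 cadherins and protocadherins, which sort neurons by adhesion, the 4-library fit called 9 higher and 0 lower (1.72 and 0.465% of all genes with a start), with a median log2 fold change of 0.61, and they held 73 HD-only and 166 wild-type-only regions. Of 30 axon guidance genes the 6-library fit called 4 higher and the 4-library fit 7 higher and 1 lower, against the same shares, with 169 HD-only and 355 wild-type-only regions. HD-only regions made up 30.5% and 32.3% of the unshared regions of these lists, against 21.4% over all genes. Wild-type-only regions were the more numerous at 12 of the 19 and at 23 of the 30 genes, against 52.6% of all genes. Their members are long, with medians of 220 and 227 kb.

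Transmitter genes and their receptors come next. Of 11 GABA and glycine genes tested, 4 were called higher in the 4-library fit (1.72% of all genes with a start) and 0 in the 6-library fit, with 12 HD-only and 29 wild-type-only regions in all. Gad2, which makes GABA, had 2 against 0 and RNA of 8.94 and 5.34 CPM in HD and 1.27 and 1.58 CPM in wild type. Slc6a5 had 3 against 1, with 14.6 and 5.91 CPM in HD and 1.91 and 2.52 CPM in wild type (log2 fold change 2.21 ± 0.454, edgeR adjusted p = 0.204 and 0.0495 in the 4-library fit). Of 7 nicotinic receptor subunits tested, 3 were called higher in the 4-library fit, against the same 1.72%. Chrna5 had 2 HD-only, 0 wild-type-only and 3 shared regions, and RNA of 42.6 and 43.9 CPM in HD and 12.8 and 16.8 CPM in wild type (1.55 ± 0.219, adjusted p = 0.0600 and 0.00166 in the 4-library fit). The neighbouring subunit genes of the same cluster were Chrnb4 with 0.84 ± 0.151 and Chrna3 with 0.49 ± 0.192, both called in the 4-library fit alone (adjusted p = 0.00551 and 0.0342). Of 11 glutamate genes 1 was called higher in that fit, Slc17a8, a vesicular glutamate transporter, which is 1 gene against a share of 1.72% over all genes.

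Hox genes, which set position along the body axis, had few unshared regions near them. Of 15 anterior Hox genes 14 had a log2 fold change above 0 (median 0.38), against 46.1% of all genes with a start. The 4-library fit called 6 higher, against 1.72% of all, while the list had 2 HD-only and 20 wild-type-only regions. All 11 posterior Hox genes tested were above 0 (median 0.51), and 2 were called higher in that fit, against the same shares. Their list had 0 HD-only, 3 wild-type-only and 21 shared regions. Hoxb9 had 7 shared and no unshared regions, with RNA of 26.7 and 36.6 CPM in HD and 11.2 and 19.1 CPM in wild type. These genes are short and close together, with medians of 3.37 and 4.56 kb, so nearest-start counts split a cluster among them.

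The markers of other cells are given beside these results. In the V2a and V2b interneuron list, Sox1, a factor of progenitors and V2c neurons, had 2 HD-only and 3 wild-type-only regions and RNA of 179 and 167 CPM in HD and 16.3 and 34.0 CPM in wild type (log2 fold change 2.79 ± 0.428, edgeR adjusted p = 0.0771 and 0.00214 in the 4-library fit). It was the only 1 of the 9 genes tested in that list to be called (1.72% of all genes with a start were called higher). Of the 9, 5 were above 0, with a median of 0.10. Among 14 progenitor markers Irx3, a patterning factor of the neural tube, had 1 HD-only and 24 wild-type-only regions, 10 of its 49 shared regions under a Mnx1 peak, and RNA of 98.6 and 99.0 CPM in HD and 171 and 145 CPM in wild type (edgeR adjusted p = 0.125 and 0.0109 in the 4-library fit). This list also holds Sox1. Of its 12 genes tested 6 were above 0 (median −0.07), and the 4-library fit called 1 higher (Sox1) and 1 lower (Irx3). All 20 cell cycle genes had a log2 fold change below 0 (median −0.36), with 4 called lower in the 4-library fit (0.465% of all genes with a start). Of 12 pluripotency markers 11 were below 0 (median −0.37), while 46.1% of all genes with a start were above 0. The summed level of 15 V0, V1 and dI6 markers was 28.5 and 33.0 TPM in HD and 20.5 and 18.4 TPM in wild type. That of 14 endoderm and mesoderm markers was 63.1 and 52.5 TPM in HD and 73.2 and 73.0 TPM in wild type. The part of these cells in the H3K4me1 lists or the RNA was not tested. None of the 20 enzymes that add or remove methyl groups at H3K4 was called in either fit (median −0.04), where 2.21% of all genes were called in the 4-library fit. Of these 20, 4 were above 0, against 46.1% of all genes with a start. HD lay wholly below wild type at 6 of them and wholly above at 0, against 22.6 and 21.4% of all genes.

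No gene nearest to the 8 most enriched regions of each unshared class was called in RNA in either fit, among the 14 genes tested. The first of the HD-only list (chr6:97353600-97355915, enrichment 6.78) lay inside Frmd4b, a scaffold protein, under H3K27ac of HD and of no other list. Its nearest start, of Lmod3, was 100 kb away and not tested in RNA. The next, beside the start of Mthfd2l, a mitochondrial folate enzyme (chr5:90930483-90931123, enrichment 5.89), lay under H3K4me3 and H3K27ac of both genotypes, with RNA of 30.1 and 23.3 CPM in HD and 25.5 and 22.8 CPM in wild type. The others of the top 8 fell nearest to Mms22l, Marcks, Meis1, Plk2, Obi1 and Socs6 and overlapped no other mark. The first of the wild-type-only list (chr17:31565882-31568971, enrichment 7.73) lay 1.16 kb from the start of Pknox1, a TALE homeodomain factor, under H3K4me3 and H3K27ac of both genotypes. RNA of Pknox1 was 45.5 and 46.0 CPM in HD and 43.3 and 45.8 CPM in wild type. The other 7 fell nearest to Cux2, Zmiz1, Tmem115, Cox7a2l, Adcy5, Kmt2e and Nat9 and overlapped no other mark. Of the 14 genes tested, 7 had HD libraries wholly above wild type and 2 wholly below, where 21.4 and 22.6% of all genes did. Their log2 fold changes ran from −0.40 (Mms22l) to 0.36 (Plk2). Plk2, a kinase of synapses, stood at 138 and 128 CPM in HD and 105 and 103 CPM in wild type (edgeR adjusted p = 0.808 and 0.0514 in the 4-library fit).

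Regions over gene starts gave no shift in median RNA as a class. An HD-only region overlapped the start window (250 bases before to 50 after the start) of 82 genes tested. Their median log2 fold change was 0.00, with 4 called higher and 0 lower in the 4-library fit (4.88% called, against 2.16% of all 10984 genes with a promoter sequence). These 4 were Chrna5, Slc6a5, Pak1, a kinase of the cytoskeleton, and Trpc5, a cation channel. A wild-type-only region overlapped the window of 1088 genes, with a median of −0.03 and 24 called higher and 7 lower, near the 1.72 and 0.465% of all genes with a start. Besides Sorcs3, Lin7a and Frzb the higher ones included Reln, the secreted guide of migrating neurons, and Synpr, a synaptic vesicle protein. Of those 1088 starts 30.3% lay under wild-type H3K27me3, against 15.9% of all 10984 starts and 13.4% of those under HD-only regions.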

How the data were processed

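The members, gene lists and tests were chosen with earlier results of these data known. Per the submitters' processing notes, the authors used Trim Galore, Bowtie2, STAR, RSEM, SAMtools, featureCounts, Subread, DESeq2 and MACS2 with mm10; versions, roles and order are not given in the sources used here. The deposited RNA files hold an expected count and a TPM per gene, per the file headers. The authors' peak lists, in MACS2 layout, hold a fold enrichment ratio and a −log10 q per peak; entries of the same start and end were taken as 1 region, and 127696 HD and 164498 wild-type entries gave the regions described. Enrichment was used only within its own list.

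Expected counts of 6 motor neuron libraries were rounded for edgeR 4.0.16 in R 4.3.3 (quasi-likelihood test with TMM scaling, filterByExpr and a Benjamini-Hochberg adjusted p of 0.05), with 3 residual degrees of freedom, and again on the 4 HD and wild-type libraries. Standard errors are the log2 fold change over the root of F. Symbols were found for 45143 of 45706 IDs. The 2 replicates of a group differed by more than sampling noise (chi-square per degree of freedom 4.75 in HD and 6.32 in wild type). Each region went to the nearest of 21887 protein-coding genes, by the start from the RefSeq promoter table (17492 genes) or, failing that, the nearer gene end (4395 genes). No genome sequence was used here, so sequences are those of promoters. On simulated counts with 200 changed genes, 57% of 2-fold and 96% of 4-fold changes of HD against wild type were found among 15234 genes, with 14 false calls; the interval code matched a direct search for 400 of 400 regions. Regions were compared in Python 3.11.15 with pandas 2.3.3 and numpy 2.4.6, and scipy 1.17.1 gave the intervals.

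Named genes are Mnx1, genes called by the 6-library fit with a mean of at least 1 CPM, the 10 with the largest excess of each kind of unshared region, those nearest to the 8 most enriched regions of each kind, and up to 4 per list with the smallest p. Ties in the excess went to the smaller unadjusted RNA p. Genes named for a region over their start, and the leading genes under H3K27me3, were chosen after their values were seen. Some genes that the rule takes are not reported here. Alternatives were other scalings, filters, tools (DESeq2 1.42.0, limma 3.58.1 on log2(TPM + 1)), libraries, overlap rules and list lengths.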

Additional observations from a re-analysis of the deposited data

How the results depend on the processing

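No called result changed direction under the alternatives run; the median log2 fold change of genes with HD-only regions alone, 0.007, ran from -0.001 to 0.02 without each replicate. The count of genes called in RNA, 27, was 336 on the HD and wild-type libraries alone, 142 without the filter on low counts, 182 with DESeq2, 20 with RLE size factors, 39 with limma on log2(TPM + 1) and 0 without any 1 replicate; the 4-library fit gave 203 and 533 without replicate 1 and 2 of HD, and 266 and 311 without replicate 1 and 2 of wild type (alternatives chosen after seeing the data). With the replicate number as a block the 6-library fit called 0 (765 at an unadjusted p under 0.05) and the 4-library fit 1754. Same-numbered HD and wild-type libraries correlated in their deviations at 0.102, and those with EH at -0.11 and -0.137, so the numbers were not taken to pair the samples.

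Shared regions were 65.5% of the HD and 53.4% of the wild-type list at a reciprocal overlap of 50%, 89.1 and 67.0% at a −log10 q of at least 5, 82.2 and 75.2% with the wild-type list of equal length, and 90.0 and 71.6% with regions within 1 kb merged. Unshared regions under H3K27ac of their genotype (6.03% HD, 5.61% wild type) were 12.2 and 8.78%, 6.98 and 6.28%, and 7.43 and 6.58% under the first 3 of these, and 5.26% of wild-type-only regions of 600 bp or less. Those under H3K27me3 (0.757 and 6.6%) became 5.99 and 8.17% at the reciprocal overlap and 1.3 and 7.85% at equal length; wild-type-only regions gave 7.34% at the higher q and 4.2% at 600 bp or less. Shares near a start (6.86 and 13.3%) were 7.81 and 14.4% at the higher q, 5.25 and 10.6% for 1 kb, 12.7 and 20.8% for 5 kb, and 7.46 and 12.0% at 600 bp or less. The HD ratio of unshared to shared median enrichment, 0.875, was 0.823 at the reciprocal overlap.

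For RNA, the median log2 fold change of genes with wild-type-only regions alone, -0.03, ran from -0.041 to -0.02 without each replicate. That of genes with 5 or more HD-only regions in excess, 0.47, was 0.371 within 50 kb (7 genes), 0.528 at the higher q, 0.205 at equal length, and 0.444 to 0.528 without each replicate. With 10 or more wild-type-only in excess, -0.05 became -0.158 within 50 kb (60 genes), -0.028 at equal length, and -0.064 to -0.025 without each replicate. Of the 25 called genes with a start, 9 had more HD-only than wild-type-only regions (7.65% of all genes did), 17 at equal length, and 61 of 300 in the 4-library fit. At equal length the share of all genes was not counted. The causes of these shifts were not tested, except that fewer genes or regions enter at the stricter settings. ChIP depth limits every count of unshared regions, and pooled lists give no replicate error.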
